A study of Mus musculus with 59 samples.

Results

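The clustered protocadherins are 58 mouse genes that stand in 3 tandem arrays on chromosome 18, with 14 genes in the alpha cluster, 22 in the beta cluster and 22 in the gamma cluster. The gene spans came from RefSeq (GRCm38.p6, which has the coordinates of mm10 used by the peak lists), where the table holds 49997 genes in all. Peaks were counted where they overlapped a gene span of a cluster widened by 10000 bp on each side, and each peak was counted once however many genes it lay near. After merging overlapping peaks of all 16 lists, the clusters held 87 of 105010 sites. The alpha genes span chr18:36930285-37188897, the beta genes chr18:37264998-37521419 and the gamma genes chr18:37661775-37841873.

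Clustered protocadherins are neuronal adhesion proteins, and each neuron is known to transcribe its own small set of them, chosen largely at random, which gives it a surface identity. Each alpha or gamma gene supplies a long first exon that encodes the outer cadherin domains and is spliced to constant exons shared by the whole cluster, whereas beta genes have no constant exons. Most promoters of the clusters carry a conserved element bound by CTCF, the zinc-finger protein that anchors chromatin loops with cohesin, and loops between CTCF sites at promoters and at distant enhancers are part of how a promoter is chosen. In the alpha cluster the alternate genes are known to have another CTCF site inside the first exon. The promoters of Pcdhac2, Pcdhb1, Pcdhgc4 and Pcdhgc5 are known to lack the conserved element.

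The study mapped CTCF by ChIP-seq while fibroblasts were reprogrammed, and in embryonic stem cells (ESCs), with 31 ChIP and 28 input samples. Fibroblasts were OG2 mouse embryonic fibroblasts, which carry an Oct4-GFP reporter, and all reprogramming medium held vitamin C. Day 10 cells received OSKM (Oct4, Sox2, Klf4 and c-Myc) from retroviruses, alone, with added Ctcf, or with added Ctcf and an shRNA against Smarca5. Sorted cells carried a doxycycline-inducible OSKM lentivirus with rtTA and an shRNA against luciferase (control) or Ctcf. They were Thy1+ cells of days 3 and 9, SSEA1- Thy1- cells of days 6 and 9, SSEA1+ cells of days 6 and 9, and Oct4-GFP+ cells of day 12. Day 0 cells with either shRNA were labelled reprogramming cells like the rest. ESCs were of the E14Tg2a line, grown with LIF, a MEK inhibitor and a GSK3 inhibitor, either wild type or with Smarca5 knocked out by a paired Cas9 nickase. SMARCA5, an ISWI nucleosome remodeller, was itself mapped by streptavidin in E14Tg2a cells that overexpressed a Flag-biotin-tagged form and were picked as single clones, so that list reflects the tagged protein.

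Each group had 1 list from 1 to 3 ChIP samples, giving 15 CTCF lists and 1 SMARCA5 list of between 23600 and 89567 peaks. Comparisons are therefore of 1 list with 1 list, without replicates, and Wilson 95% intervals cover counting error only. Every peak is 400 bp wide with a score of 0, so binding strength and depth are unknown, and a peak that is absent from a list is a peak that was not called there. Peak lists hold no mRNA levels, so neither expression of the protocadherins nor the loss of Ctcf or Smarca5 could be checked. Titles of the day 3 Thy1+ samples contradict their other labels on which one received Ctcf shRNA, and the titles were followed. The first exons of the clusters resemble one another, and the treatment of reads that map to several of them is not given in the sources used here, so the assignment of a peak to 1 gene is uncertain.

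For each gene, a start peak had its centre within 500 bp of the lower end of the gene's span, and an exon peak had its centre more than 500 and up to 2500 bp further in, where the long first exon lies. Exon boundaries were not used, so an exon peak is a class of distance. The table has no strand. The lower end was taken as the start because alpha and gamma genes share their upper ends, and for beta genes from the known orientation of the cluster.

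**Figure D1:**
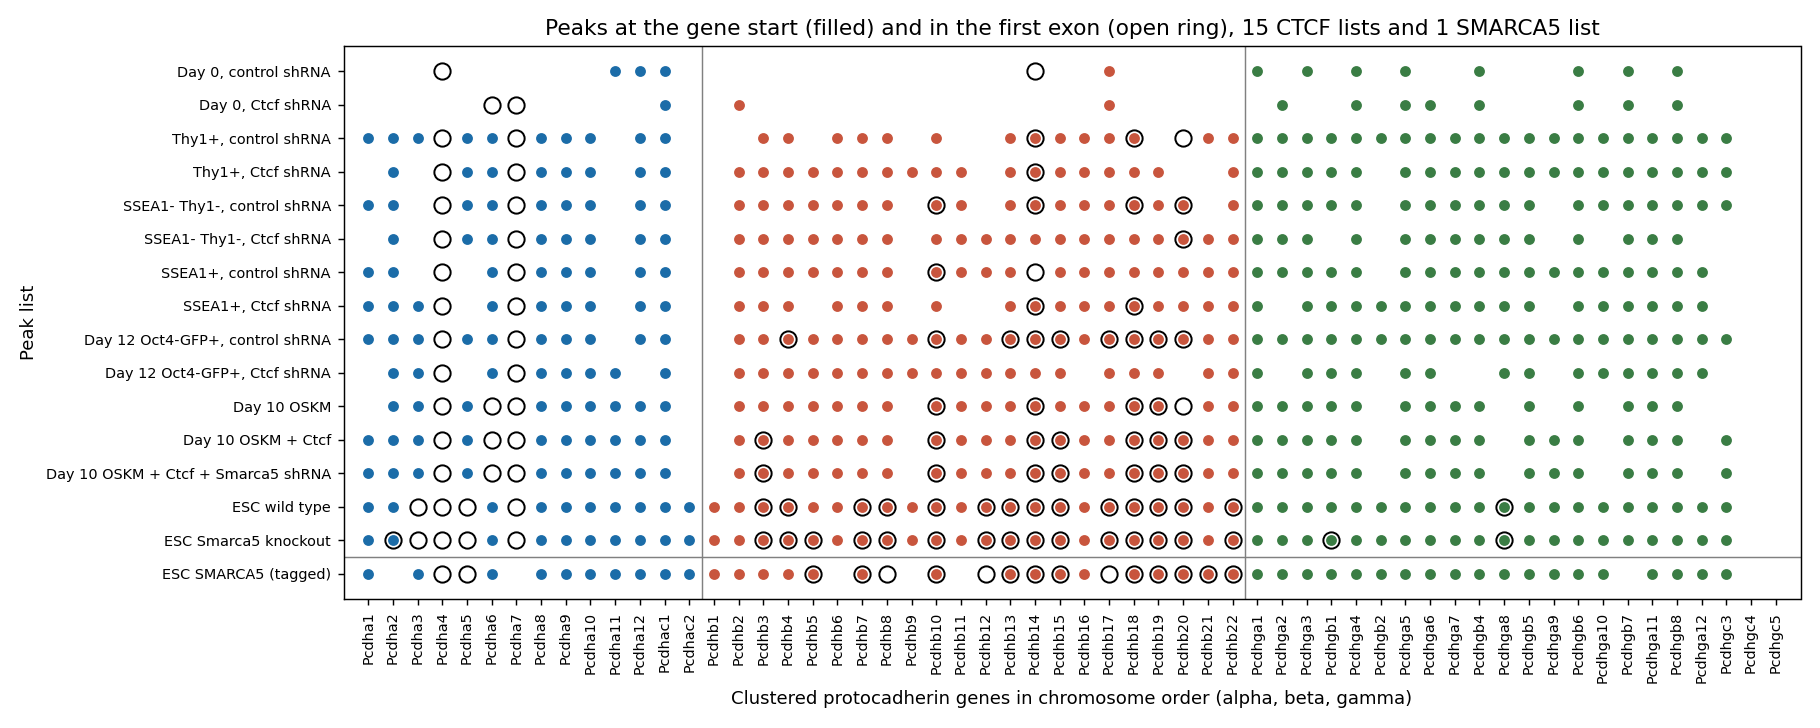
Each column is 1 of the 58 genes in chromosome order and each row is 1 of the 16 peak lists; a filled point marks a start peak and an open ring an exon peak. Day 0 rows are the emptiest, Pcdhgc4 and Pcdhgc5 have no mark in any row, and beta rings disappear from the day 12 Ctcf shRNA row.

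In day 0 control cells the beta cluster was nearly empty of CTCF peaks, whereas the gamma cluster held peaks at many starts. The list held 17 cluster peaks, of which 4 were in alpha, 2 in beta and 11 in gamma. Per megabase, gamma had 5.55 times the peak density of all of chromosome 18, alpha 1.45 times and beta 0.83 times. The 2 beta peaks were at the start of Pcdhb17 and in the exon of Pcdhb14. Start peaks were called at Pcdha11, Pcdha12 and Pcdhac1, and Pcdha4 had an exon peak. In gamma, 8 of 22 genes had a start peak, namely Pcdhga1, Pcdhga3, Pcdhga4, Pcdhga5, Pcdhgb4, Pcdhgb6, Pcdhgb7 and Pcdhgb8.

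Thy1+ control cells, which still carry the fibroblast surface marker Thy1, held 54 cluster peaks. Of these, 38 were absent from day 0, a share of 70.4% (95% interval 57.2 to 80.9%), beside 47.0% of all peaks of the Thy1+ list. By cluster, 10 of 13 alpha peaks, 15 of 17 beta peaks and 13 of 24 gamma peaks were absent from day 0. Going the other way, 2 of the 17 day 0 peaks were not in Thy1+ cells, beside 3.39% of all day 0 peaks. The day 10 OSKM cells, made with other viruses, also held 54 cluster peaks, and 38 of them were absent from day 0, beside 38.9% of all peaks of that list. There, beta had 22 of 24 peaks and gamma 7 of 18 peaks that day 0 lacked. Only 1 of the 17 day 0 peaks was missing on day 10, beside 8.19% of all day 0 peaks. Both comparisons share the day 0 list, which is also the shorter list (28838 peaks, beside 52800 for Thy1+ and 43356 for day 10 OSKM), and the part of list length in these counts was not tested.

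Among sorted control cells the alpha and gamma clusters held similar numbers of peaks throughout, and beta held the most in day 12 cells. Alpha held 13, 13, 12 and 13 peaks in Thy1+, SSEA1- Thy1-, SSEA1+ and day 12 cells. Gamma held 24, 22, 22 and 25 peaks in the same order. Beta held 17, 22, 21 and 30. The whole lists held 52800, 50890, 51978 and 53043 peaks in that order, and the part of list length in the beta counts was not tested. Relative to chromosome 18, beta density went from 3.86 times in Thy1+ cells to 7.18 times in day 12 cells, and gamma density from 6.63 to 7.28 times.

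In the comparisons below, new means absent from the first list named. The Thy1+, SSEA1- Thy1- and SSEA1+ lists all include day 9 cells, so their order is one of markers and not of time alone. From Thy1+ to SSEA1- Thy1- cells, 4 of 54 cluster peaks were absent from the second list (16.4% of all peaks) and 7 of 57 were new (13.2% of all peaks). The 4 absent were start peaks of Pcdha3, Pcdhb21, Pcdhga9 and Pcdhgb2. In beta, 6 peaks were new, and Pcdhb2, Pcdhb5, Pcdhb11 and Pcdhb19 had a peak in the SSEA1- Thy1- list but none in the Thy1+ list. From SSEA1- Thy1- to SSEA1+ cells, 5 of 57 were absent (8.84% of all peaks) and 3 of 55 were new (10.7% of all peaks). Start peaks of Pcdhb12, Pcdhb21 and Pcdhga9 were new there, but those of Pcdhb21 and Pcdhga9 were also in the Thy1+ list. Start peaks of Pcdha5, Pcdhb14 and Pcdhgc3 and exon peaks of Pcdhb18 and Pcdhb20 were absent. From SSEA1+ to day 12 cells, 1 of 55 was absent (15.4% of all peaks) and 14 of 68 were new (17.1% of all peaks). The day 12 cells thus held 98.2% of the SSEA1+ cluster peaks (95% interval 90.4 to 99.7%), beside 84.6% of all peaks, and all 21 beta and 22 gamma peaks were among those held.

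Of the 14 peaks new on day 12, 9 were in beta, and 7 of these 9 were exon peaks. New here means absent from SSEA1+ cells alone. The exon peaks of Pcdhb18 and Pcdhb20 and the start peak of Pcdhb14 were also in the Thy1+ and SSEA1- Thy1- control lists. The exon peaks of Pcdhb4, Pcdhb13, Pcdhb15, Pcdhb17 and Pcdhb19 and the start peak of Pcdhb9 were in no other sorted control list. Outside beta, start peaks of Pcdha3, Pcdha5, Pcdhgb2 and Pcdhgc3 were also in the Thy1+ control list. Beta exon peaks were centred at a median of 2202 bp from the start in day 12 cells, with a range of 2083 to 2395 bp. The number of beta genes with an exon peak was 3 in Thy1+, 4 in SSEA1- Thy1-, 2 in SSEA1+ and 9 in day 12 control cells. The 9 genes were Pcdhb4, Pcdhb10, Pcdhb13, Pcdhb14, Pcdhb15, Pcdhb17, Pcdhb18, Pcdhb19 and Pcdhb20. Each of them had a start peak as well. In SSEA1+ cells only Pcdhb10 and Pcdhb14 had an exon peak.

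Wild-type ESCs held a start peak at every beta gene and an exon peak at 14 of the 22. Their list, with 83173 peaks, held 78 cluster peaks, of which 14 were in alpha, 36 in beta and 28 in gamma. Relative to chromosome 18, density was 1.75 times in alpha, 5.14 times in beta and 4.86 times in gamma. In day 12 control cells it was higher, at 2.72, 7.18 and 7.28 times in the same order. The ESC list is longer than the day 12 list of 53043 peaks, and the part of list length was not tested. Of the 68 day 12 peaks, 1 was absent from ESCs, the start peak of Pcdha3, beside 6.18% of all day 12 peaks. Of the 78 ESC peaks, 12 were absent from day 12 cells, which is 15.4% (95% interval 9.03 to 25.0%) beside 40.4% of all ESC peaks. The gene-level additions were few. Pcdhac2 and Pcdhb1 had a start peak in both ESC CTCF lists and in the SMARCA5 list, and in no list of reprogramming cells. Pcdha11 had none in day 12 control cells and one in ESCs. Exon peaks were new in Pcdhb3, Pcdhb7, Pcdhb8, Pcdhb12 and Pcdhb22, in Pcdha3 at 2265 bp, and in Pcdhga8.

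**Figure D2:**
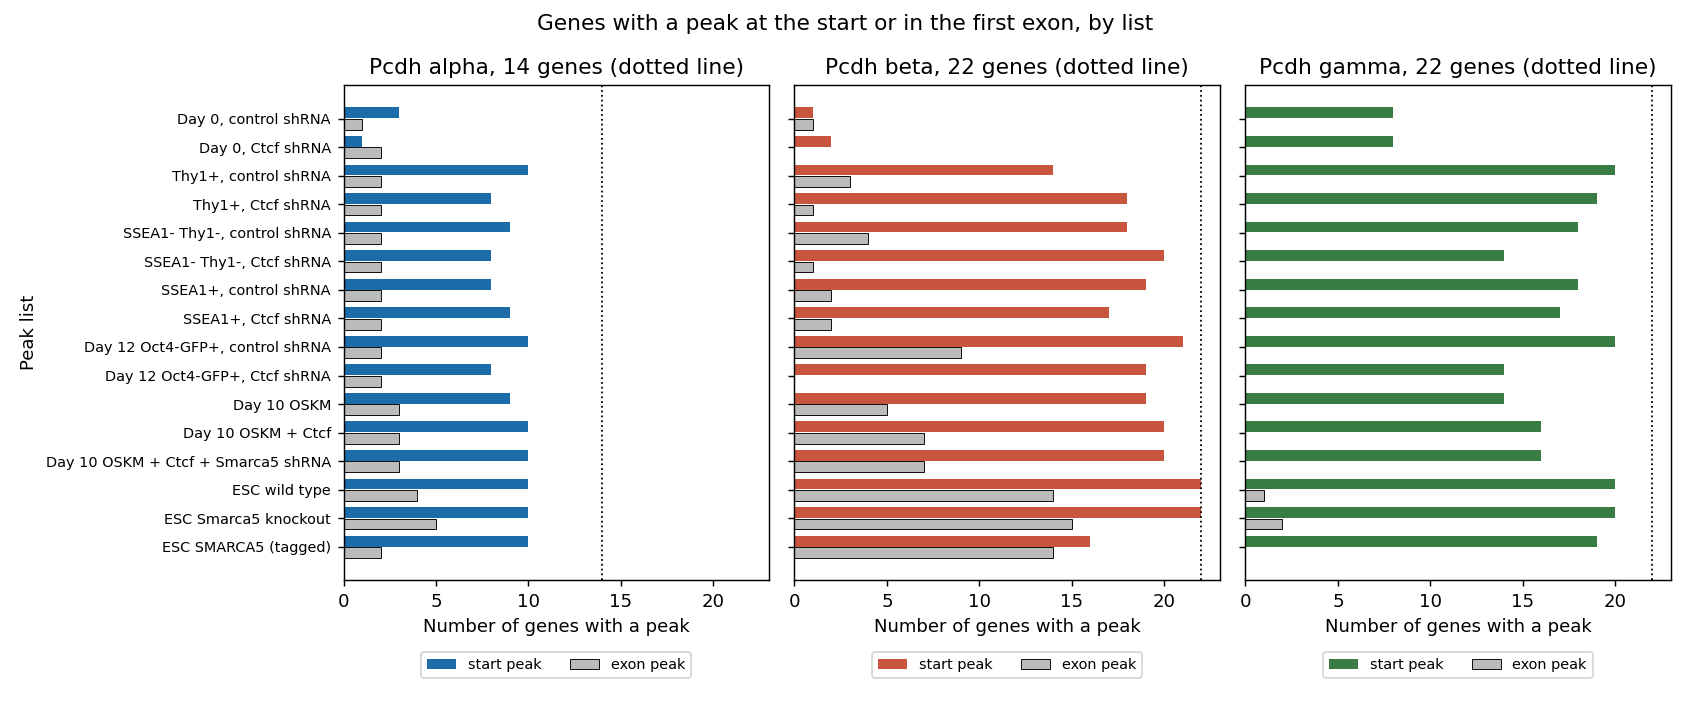
Horizontal bars give the number of genes with a start peak (coloured) or an exon peak (grey) in each of the 16 lists, with 1 panel per cluster and a dotted line at the number of genes. Beta exon bars stand at 0 in day 12 Ctcf shRNA cells, 9 in day 12 control cells, 14 in wild-type ESCs and 15 in Smarca5 knockout ESCs, while gamma has exon peaks at 1 or 2 genes in the ESC CTCF lists and at none elsewhere under the 2500 bp limit (a site 2.56 kb into Pcdhgc3, in 13 CTCF lists, lies just beyond it).

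Positions within the genes differed between the clusters. In wild-type ESCs, beta start peaks were centred at a median of -60 bp (a minus sign is upstream of the start), from -197 to -22 bp, and gamma start peaks at a median of -65.5 bp. Alpha peaks fell into a set before or close to the start and a set further inside the gene. In day 12 control cells, Pcdha2, Pcdha9, Pcdha10 and Pcdhac1 had peaks before the start. Peaks of Pcdha3, Pcdha5, Pcdha8 and Pcdha12 were centred after it, with Pcdha5 at 461 bp and Pcdha8 at 443 bp. Pcdha4 and Pcdha7 had no start peak in any list, but an exon peak in 14 of the 15 CTCF lists, at medians of 545 and 548 bp. These lie just outside the 500 bp limit and Pcdha5 in the sorted cells just inside it, so the division of alpha peaks into start and exon peaks depends on that limit.

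**Figure D3:**
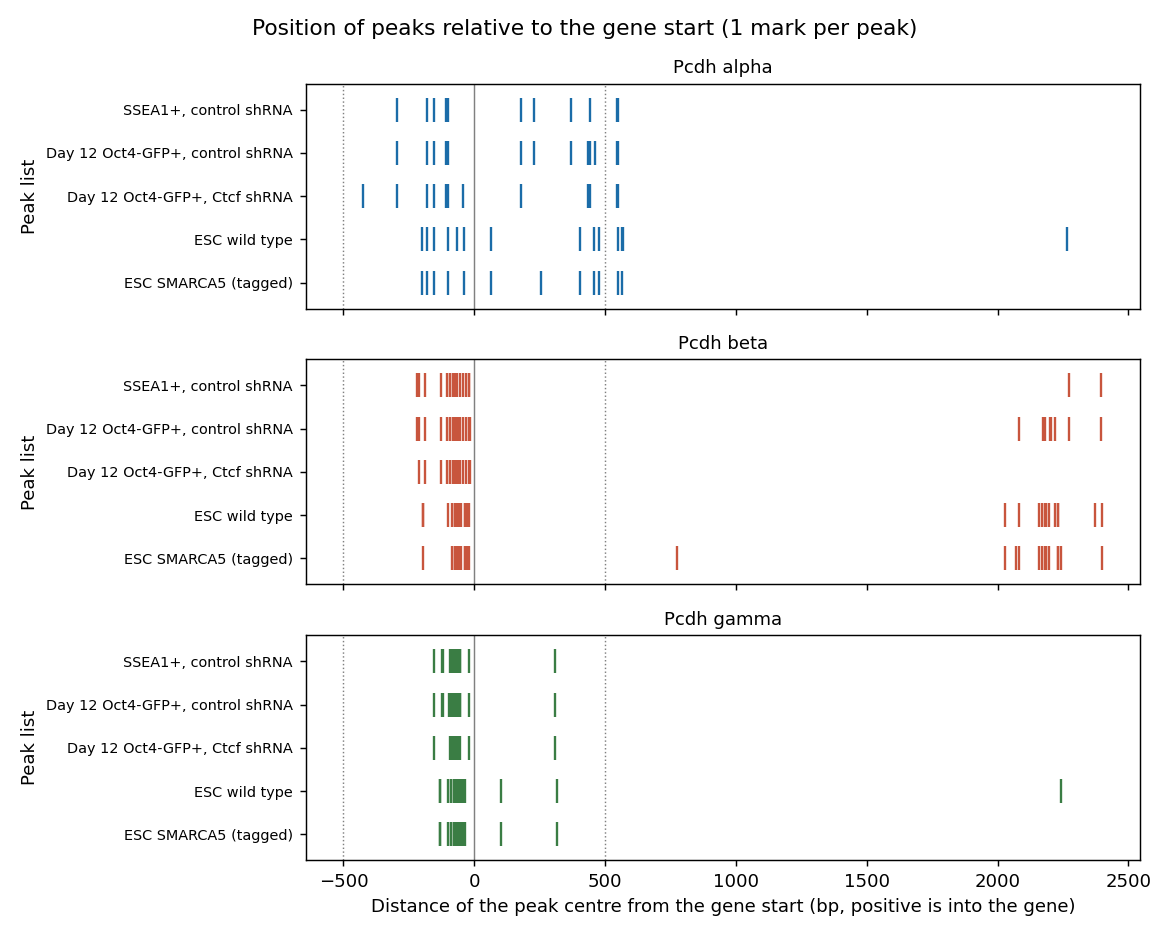
Each mark is 1 peak in 1 of 5 lists, placed by the distance of its centre from the gene start in bp, with 1 panel per cluster and dotted lines at the 500 bp limits. Beta marks form a group just before the start and a group near 2202 bp that is missing from the day 12 Ctcf shRNA row, and alpha marks also gather near 545 bp.

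The 7 genes with a start peak in all 15 CTCF lists were Pcdhac1 in alpha, Pcdhb17 in beta, and Pcdhga4, Pcdhga5, Pcdhgb6, Pcdhgb7 and Pcdhgb8 in gamma. Counted by merged sites, 1 of 20 alpha sites, 1 of 38 beta sites and 7 of 29 gamma sites were in all 15 CTCF lists. Together that is 9 of 87 sites, or 10.3% (95% interval 5.54 to 18.5%), beside 16.2% of 102399 CTCF sites over the genome. The gamma share was 24.1% (95% interval 12.2 to 42.1%). Besides the 5 gene starts, the other gamma sites in every list were at 6.18 kb before Pcdhga1 (chr18:37655377-37655815) and at the end of the constant exons, -0.439 kb from the end of the span (chr18:37841206-37841662). A start or exon peak in 13 or more of the 15 lists was found for 33 of 58 genes, the 7 named above included. Pcdhb3, Pcdhb4 and Pcdhb6, for example, lacked a start peak in the 2 day 0 lists alone.

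The C-type genes, which close the alpha and gamma arrays and are known to follow rules of their own, fell into different patterns. Pcdhac1 had a start peak in every list, the SMARCA5 list included. The 8 sorted-cell lists hold a pair of overlapping peaks there, which were counted as deposited, so alpha counts in those lists are 1 higher than the number of separate sites. Pcdhac2, which serotonergic neurons use to space their axons, had peaks in the 3 ESC lists only. Pcdhgc3, which acts in dendrite growth of cortical neurons, had a start peak in 8 of 15 CTCF lists. These were the 2 Thy1+ lists, the SSEA1- Thy1- and day 12 control lists, the 2 day 10 lists with added Ctcf and the 2 ESC lists. A separate site 2.56 kb into Pcdhgc3 (chr18:37808753-37809195) was in 13 of 15, missing from the Ctcf shRNA lists of day 0 and of day 12. Pcdhgc4, which neurons need for survival, and Pcdhgc5 had neither a start nor an exon peak in any of the 16 lists.

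Ctcf shRNA left most cluster peaks in place in the sorted cells, and at day 12 the exon peaks of the beta cluster were absent. In Thy1+ cells, 6 of 54 control peaks were absent with Ctcf shRNA (18.9% of all peaks) and 7 of 55 were only in the Ctcf shRNA list (5.50% of all peaks). In SSEA1- Thy1- cells, 8 of 57 were absent (18.0% of all peaks) and 2 of 51 only with Ctcf shRNA (5.73% of all peaks). In SSEA1+ cells, 7 of 55 were absent (18.0% of all peaks) and 4 of 52 only with Ctcf shRNA (4.51% of all peaks). In day 12 cells, 22 of 68 were absent (41.4% of all peaks) and 3 of 49 only with Ctcf shRNA (13.4% of all peaks). In day 0 cells, 7 of 17 were absent (26.7% of all peaks) and 5 of 15 only with Ctcf shRNA (10.4% of all peaks). The share kept by the clusters was thus 88.9% (95% interval 77.8 to 94.8%), 86.0% (74.7 to 92.7%), 87.3% (76.0 to 93.7%), 67.6% (55.8 to 77.6%) and 58.8% (36.0 to 78.4%), in this order. In all 5 populations the interval covered the share kept over all peaks, so the clusters as a whole did not depart from their lists by more than counting error. Over the 5 populations the clusters kept a mean of 77.7% of their control peaks (SD 13.6, n = 5 pairs of lists). That mean pools unlike pairs. Kept cluster peaks had identical positions in the 4 sorted pairs, and such common positions can raise overlaps. At day 0, 0 of the 10 kept peaks had an identical position.

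**Figure D4:**
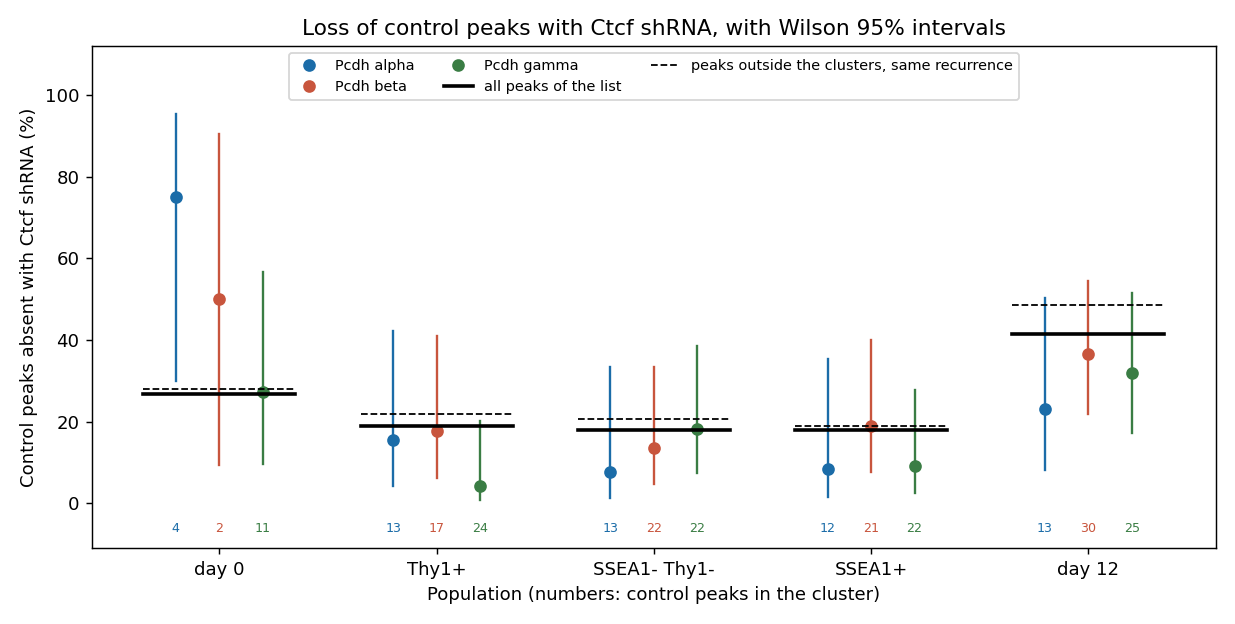
Points give the percentage of control peaks of each cluster that were absent with Ctcf shRNA in 5 populations, with vertical Wilson 95% intervals and the number of control peaks below; black lines give the same over all peaks (solid) and over peaks outside the clusters of the same recurrence (dashed). Most intervals span both lines, and at day 0 alpha has 4 and beta 2 peaks behind its point.

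A site's recurrence counts the control lists from the other sets of samples that also have it, and cluster peaks differ from the rest in it. Peaks outside the clusters with the same recurrence were absent in 28.0% at day 0, 21.9% in Thy1+, 20.7% in SSEA1- Thy1-, 19.0% in SSEA1+ and 48.5% in day 12 cells. The day 12 interval given above lies above the 51.5% kept of those peaks, and the other 4 intervals cover their counterparts.

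In the alpha cluster, Pcdha1 was the gene that most often lacked its peak with Ctcf shRNA, in Thy1+, SSEA1- Thy1- and day 12 cells, but not in SSEA1+ cells. Pcdha3 lacked it in Thy1+ cells, and Pcdha5 and Pcdha12 in day 12 cells, where Pcdha11 had a peak only with Ctcf shRNA. In day 0 cells Pcdha4, Pcdha11 and Pcdha12 lacked theirs, and Pcdha6 and Pcdha7 had one only with Ctcf shRNA. The alpha cluster kept 11 of 13, 12 of 13, 11 of 12 and 10 of 13 peaks in Thy1+, SSEA1- Thy1-, SSEA1+ and day 12 cells, and 1 of 4 at day 0.

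In the beta cluster, start and exon peaks parted at day 12. Of 21 start peaks, 19 were kept (90.5%, 95% interval 71.1 to 97.3%), and those absent were at Pcdhb16 and Pcdhb20. Of 9 exon peaks, 0 were kept (95% interval 0 to 29.9%), so Pcdhb4, Pcdhb10, Pcdhb13, Pcdhb14, Pcdhb15, Pcdhb17, Pcdhb18, Pcdhb19 and Pcdhb20 all lost theirs from the list. Peaks outside the clusters with the recurrence of these start peaks were kept in 47.2%, and with that of the exon peaks in 44.9%. In the Thy1+, SSEA1- Thy1- and SSEA1+ populations beta start peaks were kept in 13 of 14, 18 of 18 and 16 of 19 cases and exon peaks in 1 of 3, 1 of 4 and 1 of 2. The exon counts there are small, and the split was not tested. Pcdhb14 had an exon peak in 12 of 15 CTCF lists, and the lists without it were those of Ctcf shRNA at day 0, in SSEA1- Thy1- cells and at day 12. The day 12 Ctcf shRNA list is also shorter, with 35803 peaks beside 53043, and the part of its length in the loss was not tested.

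Beta genes also had start peaks that were called only with Ctcf shRNA. In Thy1+ cells these were at Pcdhb2, Pcdhb5, Pcdhb9, Pcdhb11 and Pcdhb19. They made up 5 of the 19 beta peaks of that list, or 26.3% (95% interval 11.8 to 48.8%), beside the 5.50% over all peaks. The others were at Pcdhb12 and Pcdhb21 in SSEA1- Thy1- cells, at Pcdhb14 in SSEA1+ cells and at Pcdhb2 in day 0 cells. Each of these genes had a start peak in day 12 control cells and in wild-type ESCs. Start peaks absent with Ctcf shRNA were those of Pcdhb21 in Thy1+ cells and of Pcdhb5, Pcdhb11 and Pcdhb12 in SSEA1+ cells.

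In the gamma cluster, Thy1+ cells kept 23 of 24 peaks, without that of Pcdhgb2, and no peak was called only with Ctcf shRNA. SSEA1- Thy1- cells kept 18 of 22, and Pcdhga10, Pcdhga12, Pcdhgb1 and Pcdhgc3 lacked theirs. SSEA1+ cells kept 20 of 22, without those of Pcdhga2 and Pcdhga9, and Pcdhgb2 had a start peak only with Ctcf shRNA. Day 12 cells kept 17 of 25, and Pcdhga2, Pcdhga7, Pcdhga9, Pcdhgb2, Pcdhgb4 and Pcdhgc3 lacked a start peak. In each of these populations the interval of the gamma share covered the share kept over all peaks. At day 12 it was 68.0% (95% interval 48.4 to 82.8%), beside 58.6% of all peaks. In SSEA1- Thy1- cells it was 81.8% (95% interval 61.5 to 92.7%), beside 82.0%. Gamma start peaks were kept in 14 of 20 cases at day 12, or 70.0% (95% interval 48.1 to 85.5%), an interval that overlaps the one of beta start peaks.

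Of 45 peaks present in all 4 sorted control lists, 34 were kept in all 4 Ctcf shRNA lists, or 75.6% (95% interval 61.3 to 85.8%), beside 65.1% of 38064 such peaks over the genome. By cluster these were 9 of 11 in alpha, 11 of 13 in beta and 14 of 21 in gamma. Of these 45 cluster peaks, 0 were absent from all 4 Ctcf shRNA lists, beside 306 of the 38064 over the genome. With so low a share over the genome, 0 of 45 does not set the clusters apart.

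With added Ctcf on day 10 every cluster peak was still called and a few more appeared. Of 54 OSKM peaks, 0 were absent with added Ctcf (0.330% of all peaks), and 6 of 60 were only in the list with added Ctcf (17.3% of all peaks). The 6 were start peaks of Pcdha1, Pcdhb20, Pcdhga9 and Pcdhgc3 and exon peaks of Pcdhb3 and Pcdhb15. Their share, 10.0% (95% interval 4.66 to 20.1%), has an interval that covers the value over all peaks. With an shRNA against Smarca5 on top, 0 of 60 were absent (1.72% of all peaks) and 0 of 60 were only in the Smarca5 shRNA list (0.542% of all peaks). These 3 lists have common peak positions, and how positions were brought together is not stated.

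In ESCs with Smarca5 knocked out, nearly all cluster peaks were still called, as were most peaks of the whole list. Of 78 wild-type peaks, 1 was absent from the knockout (2.88% of all peaks), at 7.90 kb before Pcdhga1 and not at a gene start. Of 81 knockout peaks, 4 were absent from wild type (9.81% of all peaks). All 4 were exon peaks by their distance from the start, at Pcdha2, Pcdhb5, Pcdhb22 and Pcdhgb1. The peak of Pcdhb22 was centred 773 bp into the gene, the other 3 between 2035 and 2275 bp. All 52 start peaks were the same in both lists. The clusters thus kept 98.7% of their peaks (Wilson interval 93.1 to 99.8%), and the interval covers the 97.1% kept over all peaks. Each list came from 1 ChIP sample. The 77 kept peaks had identical positions in both lists, and such common positions can raise overlaps. The peaks of Pcdhb5 and Pcdhb22 overlapped peaks of tagged SMARCA5.

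Tagged SMARCA5 lay at most CTCF peaks of the clusters. Of 78 wild-type ESC CTCF peaks, 62 overlapped a SMARCA5 peak (79.5%, 95% interval 69.2 to 87.0%), beside 48.6% of all CTCF peaks and 48.8% of CTCF peaks outside the clusters with the same recurrence. The counts were 11 of 14 in alpha, 28 of 36 in beta and 23 of 28 in gamma. Conversely, 62 of 66 SMARCA5 peaks of the clusters overlapped CTCF (86.1% of all SMARCA5 peaks). Start peaks without SMARCA5 were at Pcdha2 in alpha, at Pcdhb6, Pcdhb8, Pcdhb9, Pcdhb11, Pcdhb12 and Pcdhb17 in beta, and at Pcdhgb7 in gamma. Beta exon peaks overlapped SMARCA5 in 12 of 14 cases, and Pcdhb8, Pcdhb12 and Pcdhb17 had SMARCA5 at the exon peak but not at the start peak. Pcdhb17 and Pcdhgb7 had a CTCF start peak in all 15 lists and still no SMARCA5 peak there. The 12 non-clustered protocadherins, single genes that also encode cadherin-domain proteins, had SMARCA5 at 19 of 68 CTCF peaks (27.9%, 95% interval 18.7 to 39.6%). The 39 Hox genes, another set of dense arrays, had it at 30 of 43 (69.8%, 95% interval 54.9 to 81.4%). Differences between these lists were not tested.

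The same 2 lists give a scale for the losses with Ctcf shRNA. Over all peaks the kept shares were 58.6% at day 12, 81.1% in Thy1+, 82.0% in SSEA1- Thy1-, 82.0% in SSEA1+ and 73.3% in day 0 cells. At day 12 the non-clustered protocadherins kept 20 of 43 peaks (46.5%, 95% interval 32.5 to 61.1%). The Hox genes kept 16 of 27 (59.3%, 95% interval 40.7 to 75.5%). In Thy1+ cells these 2 lists kept 52 of 57 and 28 of 30, in SSEA1- Thy1- cells 46 of 57 and 26 of 29, in SSEA1+ cells 44 of 51 and 25 of 30, and at day 0 16 of 31 and 18 of 20. A list of 12 genes known to act on the promoters of the clusters, such as the cohesin loader Nipbl and the repressor Smchd1, kept 14 of 20 peaks at day 0 and 30 of 40 in both Thy1+ and SSEA1- Thy1- cells. It kept 31 of 38 in SSEA1+ and 19 of 45 in day 12 cells (the latter 42.2%, 95% interval 29.0 to 56.7%). The ESC knockout kept 68 of 68, 43 of 43 and 68 of 70 peaks of the non-clustered, Hox and promoter-acting genes, beside 97.1% of all peaks. The last had SMARCA5 at 41 of 70 (58.6%, 95% interval 46.9 to 69.4%), beside 48.6% of all CTCF peaks.

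Sites beyond the 10000 bp limit ranged from 1 to 15 in the number of CTCF lists that held them. Those named here are a selection made after their values were seen. Past the alpha constant exons, in the stretch before Pcdhb1 where the known alpha enhancer HS5-1 lies, there were sites 28.6 kb (chr18:37217271-37217685) and 29.4 kb (chr18:37217898-37218625) after the end of the alpha span. Whether they are the CTCF sites of that enhancer was not checked. They were in 12 and 13 of the 15 CTCF lists, and neither was in the wild-type or knockout ESC CTCF list. The first was also missing from the day 12 Ctcf shRNA list. The SMARCA5 list had a peak at the second. Past the gamma end, inside Diaph1, sites at 10.4, 35.6 and 41.8 kb after the gamma span were in all 15 CTCF lists. The nearest of these (chr18:37852026-37852526) lies just outside the limit, and the outermost site just inside it is the one 7.90 kb before Pcdhga1, which was in 2 CTCF lists.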

How the data were processed

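CTCF or SMARCA5 peaks of 16 groups were read from BED lists. The score that the authors deposited is 0 in every line, so each peak counts only as present. Per the submitters' processing notes, tools were FastQC, Trim Galore, Bowtie2, bedtools, SAMtools, Picard, MACS2, HOMER and deepTools, and the build mm10 (GRCm38). Their versions and roles, the thresholds and the pooling of samples are not stated in these sources. Lists fall into 4 coordinate sets (day 0, day 10, sorted, ESC) with common positions within the last 3, which can raise overlaps there. Inputs (28 samples) were not used here.

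Kept means an overlap of 1 bp or more with any peak in the other list. Members and gene lists (non-clustered protocadherins, Hox, promoter-acting genes) were chosen with earlier results of these data known, and no p-values were computed. The rule was to name genes whose start or exon peak differed between the lists of a comparison. It also covered genes with a start peak in all 15 CTCF lists or none, and the C-type genes. Beyond 12 of a kind, the first 12 in cluster order were to be named. The rule was not followed for every change. Those from day 0 to Thy1+ or to day 10 OSKM cells, for example, are given as counts alone. Some other named genes were chosen after their values were seen. Alternatives were overlap, window, recurrence, merging and distance rules. Scripts were tested on simulated data and ran in Python 3.11.15 with matplotlib 3.10.9, NumPy 2.4.6 and SciPy 1.17.1. No sequence is printed.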

Additional observations from a re-analysis of the deposited data

Results flagged for a closer look

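The number of beta cluster peaks moved in opposite directions with Ctcf shRNA in different sorted populations. The net difference, Ctcf shRNA minus control, was 2 in Thy1+ cells. It was -1 in the SSEA1- Thy1- population, -2 among SSEA1+ cells and -11 on day 12. Outside day 12 the differences are thus of 1 or 2 peaks. The whole lists were all shorter with Ctcf shRNA. In the same order they went from 52800 to 45291, 50890 to 44283, 51978 to 44622 and 53043 to 35803 peaks. The part of list length in the beta counts was not tested. Each population has 1 pair of lists, the labels of the day 3 Thy1+ samples conflict, and the difference between populations was not tested.

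At 9 places a gene's peak was absent with Ctcf shRNA in one population and called only with Ctcf shRNA in another. They are the start peaks of Pcdha3, Pcdha11, Pcdhb5, Pcdhb11, Pcdhb12, Pcdhb21, Pcdhga2 and Pcdhgb2 and the exon peak of Pcdhb18. Pcdhb5 and Pcdhb11, for example, had a start peak only with Ctcf shRNA in Thy1+ cells and only with control shRNA in SSEA1+ cells. Counted by merged sites of the 10 lists with control or Ctcf shRNA, 10 of 73 cluster sites behaved this way, or 13.7% (95% interval 7.61 to 23.4%), beside 8.15% of 73137 sites over the genome. That interval covers the genome share. The difference between populations was not tested.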

How the results depend on the processing

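A kept share was called moved when it left the interval of the main value, and a count when it changed by more than 1.5 times. With spans not widened, the Smarca5 knockout kept 100% of 76 cluster peaks in place of 98.7% of 78, and gamma alone 100% of 26. Spans widened by 50 kb moved 3 day 0 counts, beta in control and Ctcf shRNA cells to 4 each and alpha with Ctcf shRNA to 5. A start limit of 1000 bp moved 1 count, alpha genes at day 0 with Ctcf shRNA, to 3. A limit of 250 bp for a start peak lowered alpha counts by over 1.5 times in 7 lists (from 10 to 6 genes in Thy1+ and day 12 control cells). An exon limit of 3000 bp, chosen after seeing the data, moved 13 of 48 exon counts, all in gamma. Merging overlapping peaks of a list, also chosen afterwards, left all 124 values within 1.5 times or their interval.

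No paired analysis was possible because each group has 1 list for all its samples, and leaving out a replicate or setting a stricter peak threshold was not run, since there are no lists per sample and all scores are 0.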
